A study of Mus musculus with 8 samples.

Results

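The S100 calcium-binding proteins form a family of small proteins that bind calcium through a pair of EF-hand motifs and usually act as dimers. Calcium opens a hydrophobic surface on most of them, through which they bind annexins, myosins, tropomyosins and other partners, and some are released from cells and reach receptors such as Ager and Tlr4. In connective tissue the family is best known through S100a4, also called fibroblast-specific protein, which is widely used as a fibroblast and mesenchymal marker although leukocytes and other cells carry it too. Described here are 9 S100 genes, S100a1, S100a3, S100a4, S100a6, S100a10, S100a11, S100a13, S100a16 and S100b, taken by symbol out of 45321 annotated genes summed from bulk RNA sequencing of cultured mouse colon fibroblasts.

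The cultures were outgrowths of colon tissue kept as adherent fibroblasts, with no treatment according to the labels. Fib-Ctrl cultures were Zeb1 flox/flox, in which the gene carries loxP sites and is otherwise intact. Fib-dZeb1 cultures were Zeb1 del/del, in which Cre recombinase switched on in vitro had removed the stretch between these sites. Zeb1 encodes a zinc-finger transcription factor of epithelial to mesenchymal transition. The strain, sex and age of the animals, the Cre allele of these cultures and the treatment of the Fib-Ctrl cultures during Cre induction do not stand in the labels or methods used here, so loss of Zeb1 and exposure to Cre cannot be told apart. Each genotype had 2 cultures, numbered line 1 and line 2, with 2 replicate libraries of each. P-values over libraries therefore measure the spread between 4 libraries of 2 cultures, and part of it may be technical.

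Depth was 18852422 to 25540529 reads per library, and 12963 genes passed the filter on low counts. Zeb1 checked the labels: it lay between 92.1 and 98.5 CPM (counts per library total, scaled to a common depth) in Fib-Ctrl against between 11.4 and 18.3 CPM in Fib-dZeb1. Transcripts of the fibroblast markers Col1a1, Col1a2, Pdgfrb and Vim were present in all libraries, and the summed CPM of the 10 fibroblast markers lay between 41600 and 52490 in Fib-Ctrl against between 12630 and 24190 in Fib-dZeb1. Most of this sum is Col1a1 and Col1a2, and of 9 tested fibroblast markers 3 were lower (Col1a1, Col1a2 and Pdgfrb) and 6, Vim and Thy1 among them, did not pass. The summed CPM of 9 epithelial markers was 2.04 to 5.09 in Fib-Ctrl against 20.01 to 130.4 in Fib-dZeb1, and that of 6 smooth muscle markers was 1631 to 3287 and 520.3 to 714.8. For 6 mesothelial markers it was 0.233 to 1.47 and 1.58 to 9.46, although Wt1 among them had a lower mean in Fib-dZeb1. For 8 markers of neurons and interstitial cells of Cajal it was 23.88 to 37.48 and 64.85 to 104. The sums of endothelial and adipocyte markers overlapped between genotypes. Of 3 tested epithelial markers 2 were higher (Krt18, most of the mean sum in Fib-dZeb1, and Epcam), with Cdx2 at 0 reads. The 1 tested mesothelial marker, Msln, was higher, as was Ano1 of the 4 tested neuron and Cajal cell markers. Over all genes tested 7.54% were higher. Krt18, Epcam and Msln were under the filter in every Fib-Ctrl library (at most 0.412, 0.058 and 0.103 CPM). They passed it only through Fib-dZeb1, so a call could only be higher. Of 5 tested smooth muscle markers 2 were lower (Actg2 and Cnn1), against 8.65% of all genes. The calls of Col1a1, Col1a2, Pdgfrb, Krt18, Msln and Ano1 were lost with an estimated correlation within lines (adjusted p between 0.0732 and 0.408 by limma-voom). The part of these shifts in the S100 values was not tested, and in bulk RNA fewer cells of a type cannot be told from less RNA per cell. Fib-dZeb1 line 1 had Xist (250.9 and 113 CPM) and no Ddx3y, and the other 3 cultures had Ddx3y and no Xist, so in contrasts that involve that culture sex and culture cannot be told apart.

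Among the members, S100a4 had the largest drop and the smallest adjusted p, and S100a6 fell by less. Of the 9 members, 8 passed the filter and 2 of these, S100a4 and S100a6, were lower in Fib-dZeb1 (log2 fold change, the log2 of the Fib-dZeb1 level over the Fib-Ctrl level, of -1.49 and -0.72). Among all 12963 genes tested 8.65% were called lower, 7.54% higher and 16.2% in either direction, at a Benjamini-Hochberg adjusted p under 0.05 by edgeR's quasi-likelihood test. No member was called higher, while 3 of 8 had an unadjusted p under 0.05, against 32.7% of all genes. A value after ± is the standard error (SE) for a log2 value and the standard deviation (SD) over 4 libraries for a level. The median log2 fold change of the 8 tested members was 0.03, against -0.005 over all genes tested.

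Sequence upstream of the genes that the results turn on is shown first, because S100a4 and S100a6 lie close together on chromosome 3 and S100a1 and S100a13 are transcribed away from a shared gap. The sequences come from RefSeq (GRCm38.p6) and are written on the plus strand, which is the strand of S100a4, S100a6 and S100a13. Capitals mark a match to TATAAA, the TATA box. The S100a4 stretch, chr3:90603520-90603769, ends at the RefSeq start of the gene, and the S100a6 stretch, chr3:90612644-90612881, ends before its annotated start in GENCODE. The last one, chr3:90514393-90514434, is the whole gap in GENCODE between S100a1 on the minus strand and S100a13 on the plus strand. RefSeq puts the start of S100a1 at chr3:90514330, which makes the gap wider.
S100a4: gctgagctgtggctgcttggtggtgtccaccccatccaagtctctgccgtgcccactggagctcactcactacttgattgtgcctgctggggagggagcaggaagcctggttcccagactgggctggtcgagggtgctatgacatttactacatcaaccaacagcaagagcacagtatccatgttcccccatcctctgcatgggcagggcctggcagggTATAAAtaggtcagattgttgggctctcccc
S100a6: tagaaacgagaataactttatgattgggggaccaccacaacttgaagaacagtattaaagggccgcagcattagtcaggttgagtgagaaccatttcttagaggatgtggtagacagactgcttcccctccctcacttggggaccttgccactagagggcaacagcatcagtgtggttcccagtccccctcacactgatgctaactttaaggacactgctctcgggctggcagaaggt
Gap between S100a1 and S100a13: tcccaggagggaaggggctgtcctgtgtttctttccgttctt

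The 250 bases before and 50 bases after each RefSeq start were searched on both strands for CACCTG, the E-box sequence that ZEB1 is known to bind, for TATAAA and for TGANTCA, the site of AP-1 factors. Of the 9 members, 8 had a window in the table, with 12 windows in all, and S100a10 had none. The S100a4 window held TATAAA on its own strand, with 25 bases between the match and the start, and no CACCTG. Of all 32851 windows 8.32% held TATAAA on the strand of their gene and 13.6% on either strand, and of the 12 member windows 2 did, that of S100a4 and 1 of S100a3. The S100a6, S100a1, S100a13 and S100b windows held none of the 3 motifs. CACCTG was in 3 of 12 windows, 1 of S100a16 and 2 of S100a3, against 20.2% of all windows, and TGANTCA was in 2 of 12, of S100a11 and S100a16, against 7.81%. No match overlapped another. These are matches of letters in short windows and say nothing of binding.

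S100a4 binds the heavy chain of non-muscle myosin and takes part in cell motility. In TPM, a level scaled for transcript length and library total, it was at 4471, 4745, 4361 and 4668 in the Fib-Ctrl libraries of line 1 (replicates 1 and 2) and line 2 (replicates 1 and 2), and at 2198, 2362, 1392 and 1270 in the Fib-dZeb1 libraries in the same order. Every Fib-dZeb1 library lay far below every Fib-Ctrl library, and the Fib-Ctrl libraries were close to each other. The mean went from 4561 ± 176.5 to 1805 ± 554 TPM (SD, n = 4 each), and the gene moved from rank 14 to rank 84 among all genes by mean TPM. On the count scale the level in Fib-dZeb1 was 35.7% of that in Fib-Ctrl, a 2.80-fold drop (log2 fold change -1.49 ± 0.22, 95% interval -1.98 to -0.99, adjusted p = 0.00515 by edgeR). An exact permutation test of log2(TPM + 0.5), two-sided over 70 arrangements of the 8 libraries, gave p = 0.0286, the smallest value these 8 libraries can give. It takes libraries as free to swap, although replicates share a culture and the estimated correlation within lines was 0.543 over all genes. Such permutation p-values, here and below, therefore do not measure the spread between cultures. The drop was of like size in the replicate 1 libraries alone (log2 ratio -1.45, no test) and in the replicate 2 libraries alone (-1.52). The call held with each single library left out (adjusted p between 0.0067 and 0.0151) and was lost only when the replicates of a line were summed, leaving 2 against 2 (adjusted p = 0.202).

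S100a6, known as calcyclin, binds annexins and the ubiquitin ligase adaptor Cacybp. Its TPM was 2984 and 3602 in Fib-Ctrl line 1, 5174 and 5068 in Fib-Ctrl line 2, 2885 and 2766 in Fib-dZeb1 line 1 and 3088 and 2837 in Fib-dZeb1 line 2. The Fib-dZeb1 libraries were all alike, the Fib-Ctrl line 2 libraries stood well above them and the Fib-Ctrl line 1 libraries only little or not at all. In TPM the genotypes overlapped, since Fib-Ctrl line 1 replicate 1 lay below 1 Fib-dZeb1 library, whereas in CPM they did not (731 to 1279 against 611 to 653). S100a4 and S100a6 were the 2 of 8 tested members whose CPM did not overlap between genotypes, which held for 24.3% of all genes tested. The means were 4207 ± 1086 and 2894 ± 138 TPM (SD, n = 4 each), with a log2 fold change of -0.72 (± 0.18, adjusted p = 0.0296 by edgeR), or a 1.65-fold drop. The exact permutation p was 0.0571 on TPM and 0.0286 on CPM.

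The S100a6 call was less firm than that of S100a4. It was lost under 12 of 19 alternatives, all of them with a negative log2 fold change between -0.50 and -0.74. These were scaling by library size alone (adjusted p = 0.0539 by edgeR), limma on log2(TPM + 0.5) or log2(TPM + 0.1) (0.0806 and 0.0808), a block for line and replicate number (0.0553), limma-voom with a correlation within lines (0.115), summed lines (0.334) and the loss of either Fib-Ctrl line 2 library or of any Fib-dZeb1 library (0.0541 to 0.0829). It stayed with DESeq2, with no filter and with a replicate block (adjusted p = 0.0428 by edgeR).

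**Figure D1:**
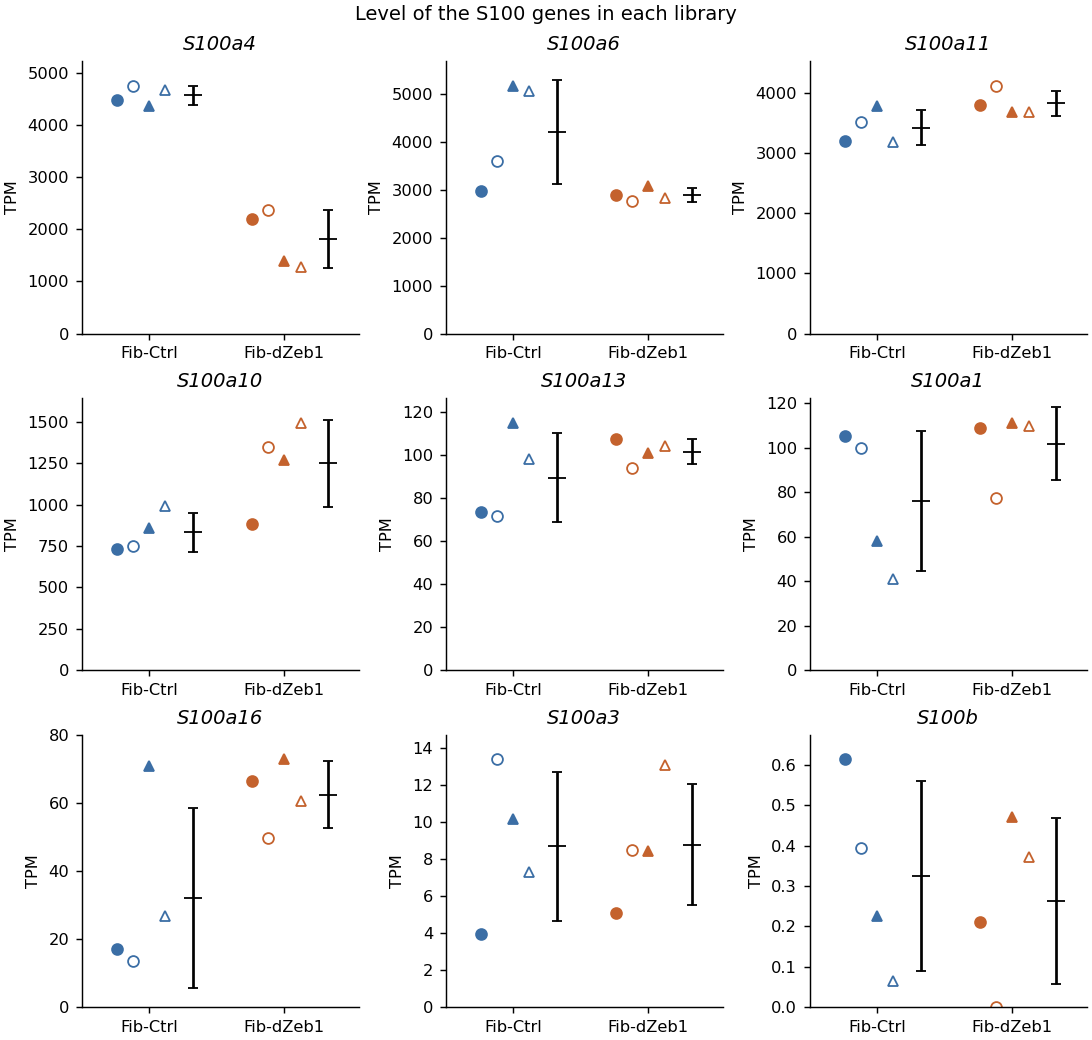
Level of each of the 9 S100 genes in TPM (y axes, linear from 0) in the 8 libraries by genotype (x axes). Round symbols show line 1 and triangles line 2, filled for replicate 1 and hollow for replicate 2. The black bars give mean and SD (n = 4). S100a4 is 4361 to 4745 TPM in Fib-Ctrl against 1270 to 2362 TPM in Fib-dZeb1, and in S100a6, S100a1, S100a13 and S100a16 the Fib-Ctrl lines lie apart.

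S100a11, which binds Anxa1 and Anxa2, was the most abundant member after S100a4 and S100a6 in Fib-Ctrl and the most abundant of all in Fib-dZeb1. It was at 3197, 3507, 3785 and 3187 TPM in Fib-Ctrl and at 3802, 4112, 3685 and 3677 TPM in Fib-dZeb1 (lines and replicates in the same order). The genotypes overlapped, with 3419 ± 286 and 3819 ± 204 TPM (SD, n = 4 each). The log2 fold change was 0.01 (± 0.10, 95% interval -0.22 to 0.24, adjusted p = 0.973 by edgeR), an interval that leaves out changes the size of those of S100a4 and S100a6, and the exact permutation p on TPM was 0.0857.

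S100a10 has lost the ability to bind calcium and is found in a complex with Anxa2 at the plasma membrane. It was at 734, 749, 858 and 989 TPM in Fib-Ctrl and at 883, 1349, 1272 and 1495 TPM in Fib-dZeb1. All Fib-dZeb1 libraries but line 1 replicate 1 exceeded all Fib-Ctrl libraries. The mean was 832 ± 118 TPM in Fib-Ctrl and 1250 ± 262 TPM in Fib-dZeb1, and the log2 fold change of 0.43 (± 0.18) did not pass (adjusted p = 0.147 by edgeR, exact permutation p = 0.0571). This result depended on the scaling. With library size alone the log2 fold change was 0.61 (adjusted p = 0.0474), with limma on log2(TPM + 0.5) it was 0.57 (adjusted p = 0.0470), and without Fib-dZeb1 line 1 replicate 1 it was 0.57 (adjusted p = 0.0365). Over all genes tested, library size alone moved the median log2 fold change up by 0.178, and the 10 most abundant genes took 8.70% to 11.49% of reads in Fib-Ctrl against 5.25% to 6.42% in Fib-dZeb1.

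The remaining tested members were lower in level and did not pass the test between genotypes. S100a13, a partner of Fgf1 in its release from cells, was at 73.5, 71.4, 114.9 and 97.8 TPM in Fib-Ctrl and at 107, 93.8, 101 and 104 TPM in Fib-dZeb1 (log2 fold change 0.02 ± 0.17, adjusted p = 0.947 by edgeR). S100a1, best known from heart and skeletal muscle, where it binds the calcium pump Atp2a2, was at 105, 100, 58.0 and 40.9 TPM in Fib-Ctrl and at 109, 77.3, 111 and 110 TPM in Fib-dZeb1 (log2 fold change 0.26 ± 0.28, adjusted p = 0.567). In both genes the Fib-Ctrl libraries fell into pairs by line, and the Fib-dZeb1 libraries lay within the range of the Fib-Ctrl libraries or close to its upper end. S100a16, a widely expressed member with an atypical EF-hand, was at 17.1, 13.6, 70.8 and 26.6 TPM in Fib-Ctrl and at 66.4, 49.7, 72.9 and 60.7 TPM in Fib-dZeb1 (log2 fold change 0.82 ± 0.48, 95% interval -0.28 to 1.92, adjusted p = 0.276). A single library decided this value: without Fib-Ctrl line 2 replicate 1, the log2 fold change of S100a16 was 1.56 (adjusted p = 0.0177). S100a3, a cysteine-rich member known from the hair follicle, was at 3.93, 13.4, 10.1 and 7.29 TPM in Fib-Ctrl and at 5.09, 8.48, 8.42 and 13.1 TPM in Fib-dZeb1, from 31 to 91 reads per library (log2 fold change 0.03 ± 0.32, adjusted p = 0.956).

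S100b is the member of glia and, in the gut, of enteric glia. It had 20 reads over the 4 Fib-Ctrl libraries and 17 over the 4 Fib-dZeb1 libraries, between 0 and 10 per library, and did not pass the filter. Its TPM was at most 0.614, so no difference was detectable at this depth. Over 9 other markers of enteric glia the summed CPM was 4.06 to 9.84 in Fib-Ctrl against 1.098 to 3.69 in Fib-dZeb1. Most of it in Fib-Ctrl was Fabp7, a fatty acid binding protein and the 1 tested gene of these, which was lower in Fib-dZeb1 (4.12 ± 1.40 to 0.882 ± 0.517 CPM, log2 fold change -2.22, adjusted p = 0.0156 by edgeR, lost with an estimated correlation within lines at adjusted p = 0.102). All 19 Sox10, 13 Foxd3 and 5 Sox2 reads lay in 1 library, Fib-Ctrl line 2 replicate 1, and Gfra3 had none. Only Erbb3 went the other way, at 0.199 ± 0.151 CPM in Fib-Ctrl against 0.972 ± 0.785 CPM in Fib-dZeb1, and it did not pass the filter. The part of these markers in the S100b reads was not tested. The S100b gene overlaps Dip2a on the opposite strand, which had 17674 reads, and the strand setting of the quantification does not stand in the labels or methods.

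The order of the levels changed between genotypes. In Fib-Ctrl the mean TPM ran from S100a4 over S100a6, S100a11, S100a10, S100a13, S100a1, S100a16 and S100a3 to S100b. The libraries of S100a4 and S100a6 overlapped, as did those of S100a6 and S100a11, S100a13 and S100a1, and S100a1 and S100a16, whereas S100a4 exceeded S100a11 in all Fib-Ctrl libraries. In Fib-dZeb1 the order was S100a11, S100a6, S100a4 and S100a10, followed by S100a1, S100a13, S100a16, S100a3 and S100b. Here S100a11, S100a6 and S100a4 did not overlap, while S100a4 overlapped S100a10, and S100a1 overlapped S100a13. Together the 9 genes made up 1.16% to 1.44% of all TPM in Fib-Ctrl against 0.957% to 1.08% in Fib-dZeb1. S100a4 took 30.2% to 38.6% of this sum in Fib-Ctrl against 13.3% to 21.9% in Fib-dZeb1, S100a11 took 22.6% to 27.6% and 37.8% to 38.4%, and S100a10 took 5.85% to 7.02% and 8.78% to 15.6%. These shares add up to a fixed total, so a lower share of S100a4 raises the others, and they carry no test.

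**Figure D2:**
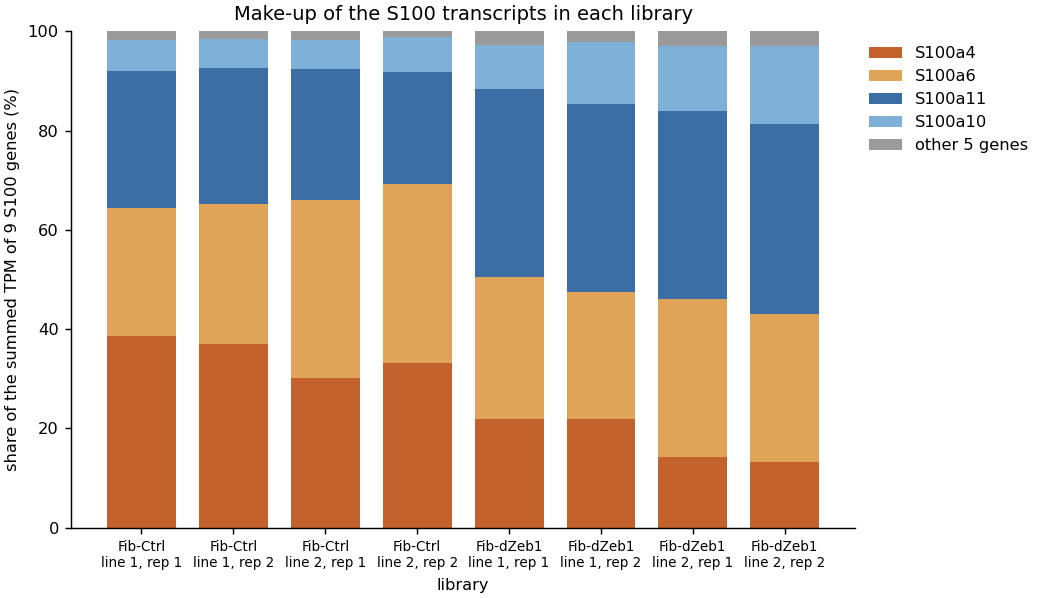
Share of the summed TPM of the 9 S100 genes (y axis, percent) that each of the 4 most abundant genes and the other 5 genes together took in each library (x axis). S100a4 takes 30.2% to 38.6% in Fib-Ctrl against 13.3% to 21.9% in Fib-dZeb1.

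The cultures were next compared by line, in a fit with a separate mean for each of the 4 cultures and 2 libraries each. Cultures with the same number are not known to come from the same animal, and the number only names the contrast. Each genotype contrast here sets a single culture against another, so genotype and culture cannot be told apart in it. P-values of the line contrasts measure only the spread between the 2 replicate libraries of a culture. The difference of both genotype contrasts depends on how the cultures were numbered. S100a4 was lower in Fib-dZeb1 in both line numbers, with a log2 fold change of -1.14 (± 0.12, adjusted p = 0.00135 by edgeR) in line 1 and of -1.95 (± 0.12, adjusted p = 0.00018) in line 2. These changes differed from each other by -0.81 (± 0.17, adjusted p = 0.0200). The difference lay between the Fib-dZeb1 cultures, of which line 2 was lower than line 1 by 0.81 on the log2 scale (adjusted p = 0.0130), while the Fib-Ctrl lines differed by 0.00 (± 0.12, adjusted p = 0.994). S100a4 was the 1 member of 8 called between the Fib-dZeb1 lines, where 6.87% of all genes were called.

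S100a6 had the reverse pattern. Its Fib-Ctrl lines differed, with line 2 above line 1 by 0.64 (± 0.13, adjusted p = 0.0167 by edgeR), and its Fib-dZeb1 lines did not pass (log2 difference 0.00 ± 0.13, adjusted p = 0.993). The genotype contrast was -1.01 (± 0.13, adjusted p = 0.00209) in line 2 and -0.37 (± 0.13, adjusted p = 0.0658) in line 1, and the difference of both contrasts, -0.64 (± 0.18), did not pass (adjusted p = 0.0532). With a replicate block, a term for the replicate number, the line 1 contrast (adjusted p = 0.0391 by edgeR) and the difference (0.0289) both passed, with the same log2 values.

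The Fib-Ctrl lines also differed in S100a1, S100a13 and S100a16, which makes 4 of 8 tested members with S100a6, against 17.0% of all genes. S100a1 was lower in Fib-Ctrl line 2 than in line 1 (log2 difference -1.02 ± 0.20, adjusted p = 0.0159 by edgeR). S100a13 was higher there (0.59 ± 0.12, adjusted p = 0.0204), although in GENCODE only 42 bases separate both genes, which lie on opposite strands. S100a16 was higher in Fib-Ctrl line 2 as well (1.74 ± 0.41, adjusted p = 0.0287), with its 2 replicates at 70.8 and 26.6 TPM. Between the Fib-dZeb1 lines none of these 3 genes was called, with log2 differences of 0.23 (S100a1), 0.00 (S100a13) and 0.20 (S100a16).

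Against these unlike Fib-Ctrl lines, the genotype contrast of S100a1 was -0.28 (adjusted p = 0.317 by edgeR) in line 1 and 0.96 (adjusted p = 0.0116) in line 2, and the difference of 1.24 (± 0.28) passed (adjusted p = 0.0257). S100a16 was higher in Fib-dZeb1 in line 1 (1.83 ± 0.41, adjusted p = 0.0166) and was at 0.29 (± 0.39, adjusted p = 0.599) in line 2, with a difference of -1.54 that did not pass (adjusted p = 0.103) but did with the replicate block (-1.45, adjusted p = 0.0329). S100a13 gave 0.34 and -0.24, neither of which passed, and their difference passed only with the replicate block (-0.58, adjusted p = 0.0441). In all, 2 of 8 members were called in line 1 (27.4% of all genes), 3 of 8 in line 2 (28.8%) and 2 of 8 for the difference of both contrasts (15.3%). With the replicate block these were 4 of 8 (36.1%), 3 of 8 (38.1%) and 5 of 8 (24.0%), and between lines 4 of 8 in Fib-Ctrl (25.8%) and 1 of 8 in Fib-dZeb1 (13.5%). S100a11 and S100a3 were called in none of the line contrasts in either fit, and S100a10 in line 1 with the block alone (0.44, adjusted p = 0.04995).

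**Figure D3:**
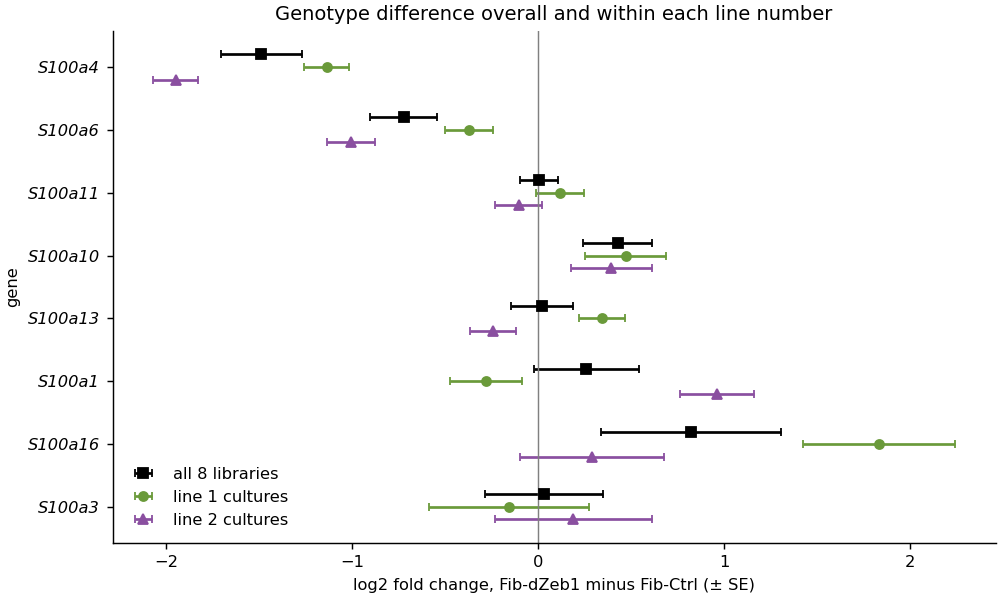
Log2 fold change between genotypes (x axis, Fib-dZeb1 minus Fib-Ctrl, ± SE) of the 8 tested S100 genes (y axis) over all 8 libraries (squares), between the line 1 cultures (circles) and between the line 2 cultures (triangles). S100a4 is below 0 in both line numbers (-1.14 and -1.95), whereas S100a1 is at -0.28 in line 1 and 0.96 in line 2.

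Ratios within a library do not depend on the scaling between libraries, and they are given as descriptions, chosen after the values were seen. The TPM ratio of S100a4 to S100a6 was 1.499 and 1.32 in Fib-Ctrl line 1, 0.843 and 0.921 in Fib-Ctrl line 2, 0.762 and 0.854 in Fib-dZeb1 line 1 and 0.451 and 0.448 in Fib-dZeb1 line 2. The genotypes overlapped by 1 library, and within each line number Fib-dZeb1 was lower. The ratio of the divergent pair S100a1 to S100a13 was 1.43 and 1.40 in Fib-Ctrl line 1 against 0.505 and 0.418 in Fib-Ctrl line 2, with the Fib-dZeb1 libraries in between at 0.823 to 1.11. The ratio of S100a10 to its partner Anxa2 was 0.552 to 0.635 in Fib-Ctrl against 1.05 to 1.78 in Fib-dZeb1, with no overlap. Anxa2 itself fell (log2 fold change -0.69 ± 0.20, adjusted p = 0.0453 by edgeR), a call that held under 4 of 19 alternatives and was lost whichever single library was left out.

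**Figure D4:**
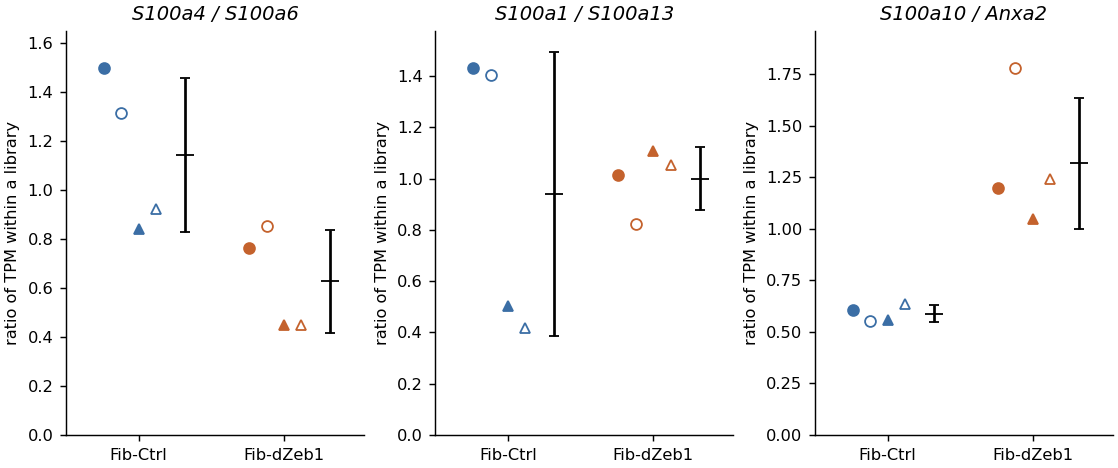
Ratio of TPM within a library (y axes, linear from 0) for S100a4 to S100a6, S100a1 to S100a13 and S100a10 to Anxa2 in the 8 libraries by genotype (x axes). Symbols are as in the plot of levels (round for line 1, triangles for line 2, hollow for replicate 2), with mean and SD (n = 4) in black. The ratio of S100a10 to Anxa2 is 0.552 to 0.635 in Fib-Ctrl against 1.05 to 1.78 in Fib-dZeb1, whereas the ratio of S100a1 to S100a13 parts the Fib-Ctrl lines.

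All tested members lie in the S100 cluster of chromosome 3 (GRCm38), which in mouse is split by genes of the cornified envelope. S100a1 (chr3:90511034-90514392), S100a13 (chr3:90514435-90524581), S100a16 (chr3:90537254-90543151), S100a3 (chr3:90560578-90602702), S100a4 (chr3:90603771-90606045) and S100a6 (chr3:90612882-90624181) form one end, and S100a11 (chr3:93520488-93526287) and S100a10 (chr3:93555080-93564643) the other, 2896306 bases further on. Only S100a1 is on the minus strand. S100b is on chromosome 10 (chr10:76253853-76261159). Of 121 annotated genes from S100a1 to S100a10, 79 had no reads in any library and 12 passed the filter, the 8 members and S100a7a, Gm9774, Sprr1a and Gm4202. Of these 12, S100a4 and S100a6 were called, both lower, and they are next to each other among the tested genes, with 6836 bases between them. S100a5, which did not pass the filter, lies in this stretch. S100a3, which ends 1068 bases before S100a4, was not called. Over all of chromosome 3, 52 of 661 tested genes were lower (7.87%) and 54 higher (8.17%).

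Most members were read from 1 annotated transcript. S100a4-201 carried 98.8% to 99.7% of the S100a4 TPM in all libraries, S100a10-201 at least 99.8% of S100a10, S100a1-201 at least 93.5% of S100a1 and S100a16-202 at least 83.5% of S100a16. S100a11 and S100a13 have 1 annotated transcript each. S100a6 was shared between S100a6-201, with 70.2% ± 2.41 of its TPM in Fib-Ctrl and 67.7% ± 2.25 in Fib-dZeb1 (SD, n = 4 each), and the shorter S100a6-203, with 29.7% ± 2.45 and 31.9% ± 2.27. The ranges overlapped, and both transcripts were at a lower mean TPM in Fib-dZeb1 (2938 ± 681 against 1958 ± 64.1, and 1265 ± 408 against 926 ± 104). Of S100a3, the share of S100a3-204 ran from 0% to 67.3% between Fib-Ctrl libraries, and its few reads cannot place it. Such shares are estimates, since both transcripts of S100a6 hold most of the same sequence.

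Other genes of the family were at or near 0. S100a9 and S100z had no reads and S100a8 had 1 read over all 8 libraries. A count of 0 allows up to 3 reads per library, or 0.118 to 0.159 CPM of the library total before scaling between libraries, unlike the other CPM values. S100a8 and S100a9 form calprotectin, the abundant protein of neutrophils, and of 10 leukocyte markers Cd52 and Adgre1 also had no reads and Ptprc had 6. The 4 that were tested, Cd14, Lyz2, Csf1r and Cd68, had 127 to 877 reads and were not called, and the summed CPM of the list was 9.34 to 20.8 in Fib-Ctrl against 8.25 to 10.6 in Fib-dZeb1. S100a5 had 8 reads in Fib-Ctrl and 1 in Fib-dZeb1, S100a14 had 7 and 6, and S100g, the calcium carrier of gut epithelium, had 31 and 4. None of these passed the filter for the edgeR test. By the exact permutation test on log2(TPM + 0.5), S100g had p = 0.0286, with no overlap between genotypes in TPM, and S100a5 had p = 0.0857. S100g had 2 reads in Fib-Ctrl line 2 replicate 1 and 2 in each Fib-dZeb1 line 2 library. Its lack of overlap there comes from the scaling of equal counts under the floor of 3 reads. S100a7a had 81 reads over all libraries and passed it without a call (adjusted p = 0.658 by edgeR). S100pbp, which is named for binding an S100 protein and is not one itself, was at 14.8 ± 2.93 TPM in Fib-Ctrl and 18.9 ± 1.65 TPM in Fib-dZeb1 (adjusted p = 0.207). S100a7l2 was not in the annotation used. Of the 2 tested genes on this list none was called, and with library size alone 1 was called higher.

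Proteins that S100 proteins bind or act on were read from a list of 41 genes, of which 38 were tested. It held 5 genes that were higher and 2 that were lower in Fib-dZeb1, or 9 and 1 with library size alone, and its median log2 fold change was -0.04. Of all genes 7.54% were higher and 8.65% lower, or 17.5% and 5.55% with library size alone, which is the background for this and the next lists. Cnn1, calponin of smooth muscle, fell from 531 ± 129 to 223 ± 39.6 CPM (log2 fold change -1.25 ± 0.19, adjusted p = 0.00611 by edgeR), and Anxa2 was the other gene that fell. Trp53, the tumour suppressor p53, rose from 131 ± 15.96 to 199 ± 8.64 CPM (0.61 ± 0.11, adjusted p = 0.00884), and Anxa5, an annexin that binds phosphatidylserine, from 248.9 ± 40.7 to 421 ± 58.2 CPM (0.76 ± 0.15, adjusted p = 0.0126). The co-chaperone Sugt1, which S100a6 binds, also rose (0.52 ± 0.12, adjusted p = 0.0249), as did the growth factor Fgf1 from a low level (0.249 ± 0.304 to 2.17 ± 0.383 CPM, adjusted p = 0.0304). Fgf1 was at 0 to 0.687 CPM in Fib-Ctrl and passed the filter through Fib-dZeb1, so the direction of its call was largely set beforehand. Anxa7 was the fifth gene that rose. The calls of Cnn1, Trp53 and Anxa5 held with each of the 8 libraries left out, whereas Sugt1 held in 4 of 8, Fgf1 in 2 and Anxa7 in 1. With an estimated correlation within lines Cnn1 held (adjusted p = 0.0321 by limma-voom), and the other 6 were lost (adjusted p between 0.0632 and 0.206). Among partners that did not pass, named after their values were seen, Myh9 was at -0.24 (± 0.20, adjusted p = 0.449), Cacybp at 0.11 (± 0.21, adjusted p = 0.764) and Anxa1 at 0.39 (± 0.14, adjusted p = 0.0860).

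Of 12 annexins, the calcium-dependent membrane binders that many S100 proteins dock to, 10 were tested, with 2 higher (Anxa5 and Anxa7) and 1 lower (Anxa2), and a median log2 fold change of 0.23. With library size alone, 4 were higher and none was lower. Of 13 genes for cell-surface and other receptors of secreted S100 proteins, 8 were tested and 1, Bsg or basigin, fell, from 708 ± 46.3 to 489 ± 17.3 CPM (log2 fold change -0.53 ± 0.09, adjusted p = 0.00732 by edgeR). This call held with each of the 8 libraries left out and was lost with an estimated correlation within lines (adjusted p = 0.0639). Their median log2 fold change was 0.53. Ager, the receptor for advanced glycation end products, had 53 reads over all libraries and was not tested, and Tlr4 was at 24.1 ± 7.601 and 23.5 ± 0.998 CPM (log2 fold change -0.03, adjusted p = 0.929).

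Among 49 other EF-hand calcium binders 40 were tested, with 2 higher and 4 lower, or 6 and 2 with library size alone, and a median log2 fold change of -0.05. Among the lower genes were Sparc, a secreted matrix protein (7316 ± 1306 to 2882 ± 708 CPM, log2 fold change -1.34 ± 0.20, adjusted p = 0.00568 by edgeR), and Rcn3 and Rcn2, calcium binders of the secretory pathway (-0.87, adjusted p = 0.0165, and -0.50, adjusted p = 0.0278). The higher genes were Lcp1, a plastin that bundles actin (1.60 ± 1.72 to 20.9 ± 16.9 CPM, adjusted p = 0.0297), and the myosin light chain Myl12b (0.71, adjusted p = 0.0423). With each of the 8 libraries left out Sparc and Rcn3 held, whereas Lcp1 held in 3 of 8 and Rcn2 and Myl12b in 2. With an estimated correlation within lines all 5 were lost (adjusted p between 0.0791 and 0.209 by limma-voom).

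The genes whose level over the 8 libraries was most like that of S100a4 were Lactb, Sdc1 and Lsp1, with a root mean square difference of 0.209, 0.216 and 0.220 between mean-centred log2(CPM + 0.5) profiles, out of 12050 protein-coding genes. All 3 were lower in Fib-dZeb1 (log2 fold changes of -1.21, -1.19 and -1.73). S100a6 itself was at 0.567 from S100a4. The genes most like S100a6 were Inf2, Pla2g15 and Rnasek, at 0.055, 0.092 and 0.102, with log2 fold changes of -0.70, -0.66 and -0.83. The profiles span both genotypes, so the direction of these log2 fold changes follows from how the genes were chosen. None of these 6 genes lies on chromosome 3.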

How the data were processed

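Polyadenylated RNA of 4 cultures was sequenced in 8 libraries. The authors aligned reads to GRCm38 with STAR and quantified transcripts with Salmon in an nf-core pipeline, and they used DESeq2 for their comparison. Their DESeq2 results were not used here, and DESeq2 was run anew only as an alternative. The deposited estimated counts per transcript carry no normalization, and the deposited TPM are scaled for effective length and library total by Salmon. For STAR, Salmon and the strand setting, versions and values are not given in the sources used.

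Estimated counts and TPM were summed to genes with GENCODE M21, which matched 98.72% of 109617 transcripts (unmatched ones held 0.262% to 0.303% of reads), and sums were rounded. The members and lists were chosen with earlier results of these data known. Genotypes were compared with edgeR 4.0.16 (R 4.3.3): genes with at least about 10 reads in 4 libraries, TMM scaling, quasi-likelihood test, adjustment over all 12963 genes at 0.05. A second fit had a mean per culture. CPM are after TMM scaling. Standard errors came from the coefficient and its F statistic, and 95% intervals from them with 8.7 degrees of freedom. Single genes were also compared by exact permutation, with libraries and not cultures as units. Alternatives used DESeq2 1.42.0 and limma 3.58.1, other scalings and filters, blocks and single libraries left out. Of each list, up to 4 rising and 4 falling genes with the smallest adjusted p were named, and Myh9, Cacybp, Anxa1, Tlr4 and Ager were added after their values were seen. Both gene records named Sept2 overlap, and the first was used. The scripts were tested on simulated data in which libraries were drawn independently and with less spread than here. That test therefore does not cover a correlation within lines. Numbers in the labels were checked as pairs: deviations of same-numbered libraries from their genotype means correlated at 0.20, -0.04, -0.04 and 0.07, so they were not taken as pairs there. Around the means of cultures, the change from replicate 1 to 2 correlated at 0.14 to 0.34, so line contrasts are also given with a replicate block. Replicates of a culture differed beyond sampling noise (chi-square per degree of freedom 19.6 to 76.2). Counting floors cover counting error only. Some genes that the lists count are not reported here by name.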

Additional observations from a re-analysis of the deposited data

Results flagged for a closer look

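S100a1 in Fib-dZeb1 line 1 replicate 2 stood apart from its group, at 77.3 TPM against 109 to 111 TPM in the other 3 Fib-dZeb1 libraries. Its distance to the nearest library was 0.927 of the group's range, above Dixon's 95% limit for 4 samples. Chance gives such a distance in about 1 of 20 groups, and 18 groups of member levels were screened.

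The genotype difference of S100a4 was larger in the line 2 cultures than in the line 1 cultures. The difference of both log2 fold changes, line 2 minus line 1, was -0.81 (SE 0.17, adjusted p = 0.0200 by edgeR). The genotype difference of S100a1 changed between line numbers by 1.24 (SE 0.28, adjusted p = 0.0257 by edgeR), and here the Fib-Ctrl lines were the ones that differed. Both differences rest on 2 libraries per culture and on how the cultures were numbered, and genotype and culture cannot be told apart within a line number. The line 1 contrast also sets cultures of unlike sex against each other, so culture and sex cannot be told apart in it.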

How the results depend on the processing

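Of 19 alternatives, library size alone moved the calls from 978 higher and 1121 lower genes to 2272 and 719, and the members called from 0 higher and 2 lower to 1 and 1. Limma on log2(TPM + 0.5) or log2(TPM + 0.1) gave 1985 and 726, or 1984 and 725 genes, and 1 and 1 members. DESeq2 called 1572 and 1758 genes and the same number of members. A correlation within lines left 114 and 146 genes and 0 and 1 members, and summed lines 9 and 7 genes and 0 members, with 2 members at an unadjusted p under 0.05. With single libraries left out, 476 to 1011 genes were higher and 508 to 1141 lower, with 0 to 1 members higher and 1 to 2 lower. The lowest gene counts came without Fib-dZeb1 line 2 replicate 2, and the cause was not tested.

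The replicate block gave 920 and 1046 genes and 2 lower members, and the block for line and replicate number 1 lower member. In the line contrasts the replicate block raised the members called from 2 to 4 in line 1 and from 2 to 5 for the difference of both contrasts, and no low-count filter raised the latter to 4. Around the genotype means, the best correlate of a library in the other genotype had its own line and replicate number in 3 of 8 cases, while the change from replicate 1 to 2 correlated at 0.14 to 0.34 between cultures.

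Among the log2 fold changes of the members, signs turned in 3 genes near 0, with single libraries left out: S100a3 ran from -0.17 to 0.21 (lowest without replicate 2 of Fib-dZeb1 line 2), S100a11 from -0.05 to 0.05 and S100a13 from -0.08 to 0.16 on the log2 scale. S100a4, S100a6, S100a1, S100a10 and S100a16 kept their sign under all 19. The ratio of mean levels, Fib-dZeb1 over Fib-Ctrl, was 1.12 in TPM and 0.996 in CPM per kb of effective length for S100a11, and 1.01 and 0.896 for S100a3. In the replicate 1 libraries alone, chosen after seeing the data, the log2 ratio was -0.17 for S100a3, -0.05 for S100a11 and -0.02 for S100a13. Depth limits S100b (0 to 10 reads per library) and S100a3 (31 to 91).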
